A study of Rattus norvegicus with 4 samples.

Results

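The insulin-like growth factor (IGF) system of cultured rat granulosa cells was described here through 10 genes. They were the ligand gene Igf1, the receptor genes Igf1r, Igf2r and Insr, the adaptor gene Irs1, and the binding protein genes Igfbp2, Igfbp3, Igfbp4, Igfbp5 and Igfbp6. Members were all probe sets annotated with 1 of these symbols and no other, which gave 21 probe sets, out of 14217 genes with such a probe set on the array. Of the 21, 18 probe sets of 9 genes passed the filter on dim signals, a mean of at least 78.6 over the arrays. The 3 that did not were both probe sets of Igfbp3 and the dimmer of Igfbp6.

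Granulosa cells, the somatic cells that surround the oocyte and make estradiol and progesterone, came from ovaries of immature female Sprague Dawley rats, 27 days old and primed for 48 h with PMSG, a gonadotropin that drives follicle growth. Transfection was with 20 nM Runx2 siRNA in 2 samples and with 20 nM negative control siRNA in the other 2, and all 4 then stayed for 48 h in 10 µM forskolin, an activator of adenylyl cyclase. All samples shared a reduced-serum medium with insulin, transferrin and selenium, so a ligand of this receptor family was supplied in both groups. Total RNA was hybridised on 1 array per sample, and the comparison asked which transcripts depend on Runx2, a Runt-domain transcription factor. The labels number the samples of a group as replicates without saying that they came from separate cultures or animals, so the p-values measure only the spread between these samples, which may be technical.

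In the IGF system, IGF1 and IGF2 act through IGF1R, a receptor tyrosine kinase closely related to the insulin receptor, which recruits adaptors such as IRS1 and so feeds the PI3K and Akt and the Ras and MAPK pathways. IGF2R has no kinase: it carries IGF2 and mannose 6-phosphate tagged enzymes to lysosomes. Secreted IGF binding proteins hold the ligands in the fluid outside the cell, and proteases that cut them set the ligands free. In the rat follicle, granulosa cells make IGF1, which strengthens their response to follicle-stimulating hormone.

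The second Runx2 siRNA array stood apart from the others. Its bacterial and phage spike-in transcripts had a geometric mean 1.73 times that of the control arrays, against 0.955 on the first Runx2 siRNA array. The 3' to 5' actin signal ratio of the second array was 1.71, against 1.42 to 1.45 elsewhere. The same ratio for GAPDH was not raised on it, at 0.949 against 0.978 to 1.03 elsewhere. Runx2 itself was not analysed here (0 probe sets paired with it), so the groups rest on their labels. Of the granulosa markers 11 of 12 measured were above 78.6, with summed signals of 97180 and 106400 with Runx2 siRNA and 91860 and 85270 with control siRNA. The brightest markers carry this sum. Taken singly, 8 of the 12 were higher on average with Runx2 siRNA, and Cyp19a1, Cyp11a1, Star and Amh were lower. Cyp19a1 had 856 and 470 with Runx2 siRNA against 2249 and 1185 with control siRNA. Theca markers had means below the limit of 78.6 in 3 of 3, including Cyp17a1 and Insl3. Their summed signals were 172 and 129 with Runx2 siRNA and 80.2 and 79.7 with control siRNA. Cyp17a1 read 91.7 on the first Runx2 siRNA array. Above the limit were 4 of 8 leukocyte, 1 of 6 endothelial, 8 of 9 stromal, 1 of 5 oocyte and 1 of 3 epithelial markers. In a culture, a change in the share of a cell type and a change of RNA per cell cannot be told apart.

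The sequences before the starts of Igf1, Igf1r and Igf2r are shown because these genes had more than 1 tested probe set and all of them lay on the same side of the controls, Igf1 higher and both receptors lower with Runx2 siRNA. Igfbp4 and Igfbp6, with 1 tested probe set each, also lay above the controls, and their windows are not printed. Each is the 250 bases before the gene's RefSeq start on the plus strand of build GRCr8: chr7:24172282-24172531 for Igf1, chr1:130959747-130959996 for Igf1r and chr1:50526628-50526877 for Igf2r. Capitals mark matches, on either strand, to the Runx words TGTGGT and TGCGGT, the cAMP response core TGACG, the GC box GGGCGG and the E box CACGTG. The E box was added after the sequences had been read.
Igf1: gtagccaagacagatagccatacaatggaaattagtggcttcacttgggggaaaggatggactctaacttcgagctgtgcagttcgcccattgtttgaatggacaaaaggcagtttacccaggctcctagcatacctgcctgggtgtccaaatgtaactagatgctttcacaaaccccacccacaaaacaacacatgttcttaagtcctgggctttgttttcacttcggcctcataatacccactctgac
Igf1r: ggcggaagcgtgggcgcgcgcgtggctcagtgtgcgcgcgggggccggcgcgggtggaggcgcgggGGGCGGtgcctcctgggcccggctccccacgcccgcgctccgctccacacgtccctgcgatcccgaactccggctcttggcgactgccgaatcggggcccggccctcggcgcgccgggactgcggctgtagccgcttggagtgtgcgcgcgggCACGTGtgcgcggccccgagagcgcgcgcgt
Igf2r: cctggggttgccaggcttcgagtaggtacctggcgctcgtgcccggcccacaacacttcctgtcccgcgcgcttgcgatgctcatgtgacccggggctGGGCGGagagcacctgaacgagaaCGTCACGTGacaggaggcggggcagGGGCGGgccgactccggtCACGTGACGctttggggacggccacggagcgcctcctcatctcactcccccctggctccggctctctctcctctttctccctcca
The Igf1 window held none of these words and had 46.8% G and C, against a median of 51.2% over 33469 windows of the same length. The Igf1r window, at 79.6%, held 1 GC box and 1 E box. The Igf2r window, at 68.0%, held 2 GC boxes, 2 E boxes and 2 cAMP response cores, and each core overlapped an E box by 2 bases. Over all windows 19.0% held a Runx word, 18.2% the cAMP response core, 30.5% the GC box and 5.59% the E box. Of the 10 members, 0 had a Runx word in the window, 2 had the core, 4 had a GC box and 3 had an E box. These are matches of letters in a short window, and Igf1 is also transcribed from other starts. Most member windows had more G and C than the median, and the E box was a late choice. The member counts therefore cannot show an excess over all windows.

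With Runx2 siRNA the ligand transcript was higher and the transcripts of the type 1 and type 2 IGF receptors were lower, on both arrays and by every probe set of the 3 genes. Differences are given as log2(signal + 16), Runx2 siRNA minus control siRNA, with the standard error (SE) from limma, a linear model fitted to all 18625 probe sets that passed the filter. Signals are MAS5 array intensity on a linear scale and have no unit. Of those probe sets 0 had an adjusted p under 0.05, a background of 0.0%, and 0 of the 18 member probe sets did. At an unadjusted p under 0.05, 2225 probe sets differed, 6.45% of all higher and 5.49% of all lower. Among the members 4 of 18 were higher at that level (all 3 of Igf1 and that of Igfbp4) and 4 of 18 lower (both of Igf1r and both of Igf2r). These 8 probe sets are of 4 genes, and the members were chosen with earlier results of these data known. The counts therefore cannot show an excess over the shares of all probe sets. No difference below had an adjusted p under 0.05 in this test, which has no term for the replicate number. The 2 arrays in each group limit the precision.

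**Figure D1:**
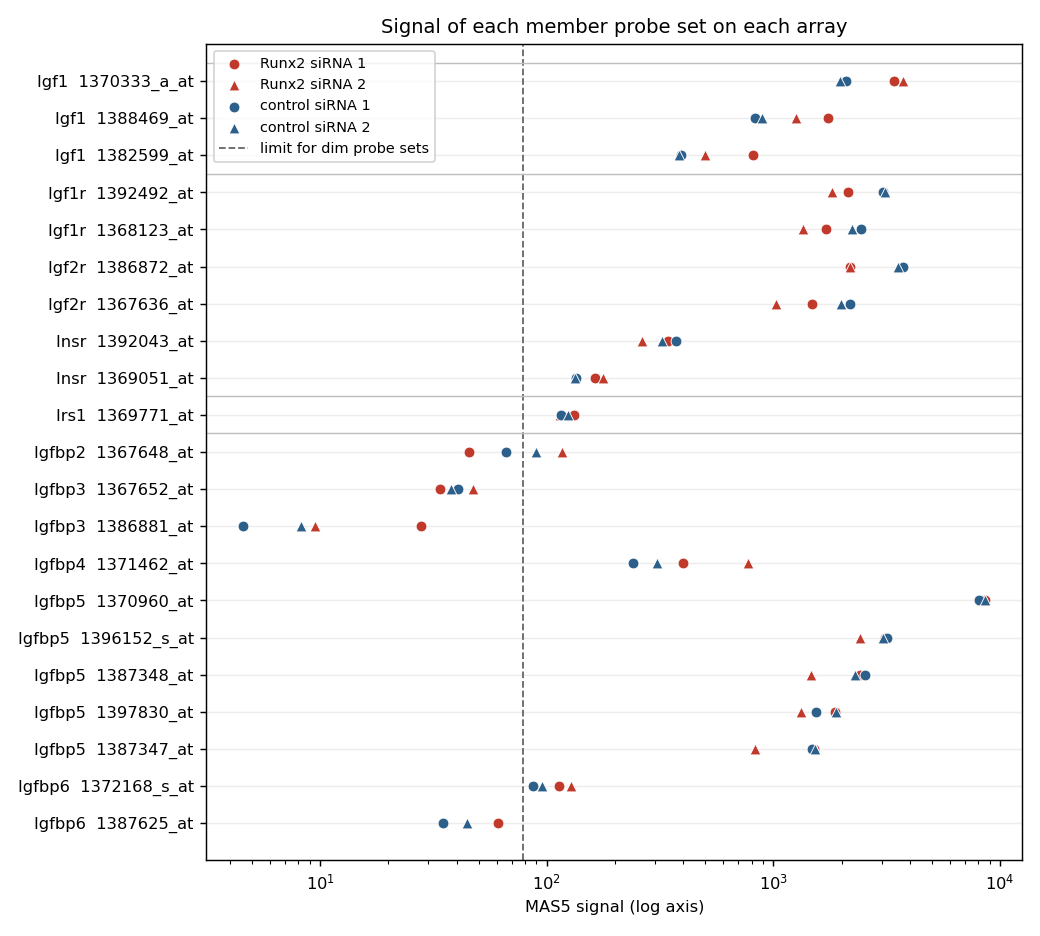
MAS5 signal (log axis) of the 21 member probe sets on each of the 4 arrays, Runx2 siRNA in red and control siRNA in blue, circles for the arrays numbered 1 and triangles for those numbered 2; the dashed line is the limit of 78.6. Red lies to the right of blue for the 3 Igf1 probe sets and to the left for the 4 of Igf1r and Igf2r, and the red triangle is the leftmost of the 4 symbols for 4 of the 5 Igfbp5 probe sets.

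Igf1 encodes the ligand. Its brightest probe set, 1370333_a_at, read 3388 and 3723 after Runx2 siRNA, and 2079 and 1968 after control siRNA. The lower Runx2 siRNA array was thus well above the higher control, and the gap between the groups was larger than that within either. The means were 3555 ± 237 and 2023 ± 78.5 (SD, n = 2 arrays each), a ratio of 1.76 and a log2 difference of 0.81 ± 0.10 (adjusted p = 0.248 by limma). In 98.9% of the tested probe sets the difference was lower than this.

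The dimmer Igf1 probe sets gave the same direction with more spread. Probe set 1388469_at had 1733 and 1256 with Runx2 siRNA against 826 and 893 with control siRNA, a log2 difference of 0.77 ± 0.17 (adjusted p = 0.346). Probe set 1382599_at had 811 and 501 against 391 and 384, a difference of 0.70 ± 0.24 (adjusted p = 0.389). In both, the second Runx2 siRNA array was the lower of its group, whereas it was the higher in the brightest probe set. Taken by number, the arrays numbered 1 therefore differed more than those numbered 2 in the dimmer probe sets (1.05 against 0.48, and 1.02 against 0.37), and less in the brightest (0.70 against 0.91). Without the second Runx2 siRNA array the 3 differences were 0.74, 1.00 and 1.04, in order of brightness, and without the first they were 0.87, 0.54 and 0.36.

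Igf1r encodes the signalling receptor of IGF1. Its brighter probe set, 1392492_at, had signals of 2134 and 1815 with Runx2 siRNA and 3054 and 3098 with control siRNA. Its other probe set, 1368123_at, had 1706 and 1350 against 2435 and 2213. Both Runx2 siRNA arrays lay below both controls in each probe set, and the second was the lower. The log2 differences were -0.64 ± 0.12 (adjusted p = 0.317) and -0.61 ± 0.14 (adjusted p = 0.346), ratios of 0.642 and 0.658. Without the second Runx2 siRNA array they were -0.52 and -0.44.

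Igf2r encodes the cation-independent mannose 6-phosphate receptor, which clears IGF2. Probe set 1386872_at had 2183 and 2166 with Runx2 siRNA and 3716 and 3551 with control siRNA, so that the Runx2 siRNA arrays almost coincided. Its log2 difference was -0.74 ± 0.09, a ratio of 0.599 (adjusted p = 0.248), and lay between -0.77 and -0.70 whichever array was left out. Probe set 1367636_at had 1478 and 1029 against 2166 and 1996, a difference of -0.75 ± 0.19 (adjusted p = 0.353), which was -0.49 when the second Runx2 siRNA array was left out. The groups did not overlap in either probe set. Of all tested probe sets 2.06% and 1.97% had a lower difference than these.

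Insr encodes the insulin receptor, and its probe sets disagreed. The brighter, 1392043_at, had 342 and 262 with Runx2 siRNA and 371 and 322 with control siRNA, so the groups overlapped, with a log2 difference of -0.20 ± 0.19. The dimmer, 1369051_at, had 163 and 177 against 135 and 133, with both Runx2 siRNA arrays above both controls, a difference of 0.31 ± 0.18 (adjusted p = 0.502). No direction for Insr can be read from these arrays. Irs1, the adaptor that couples both kinase receptors to PI3K, had signals of 132 and 115 against 115 and 124, and its groups overlapped (0.04 ± 0.20).

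**Figure D2:**
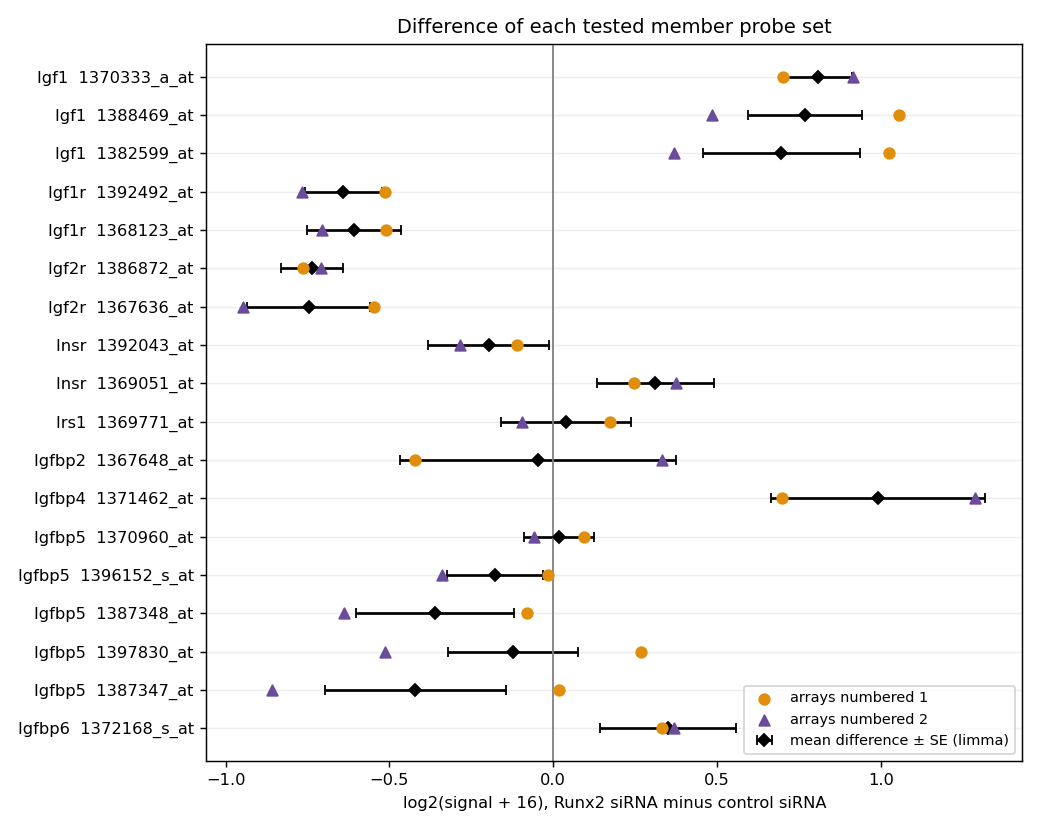
Difference of log2(signal + 16), Runx2 siRNA minus control siRNA, for the 18 tested member probe sets, for the arrays numbered 1 (orange circles), for the arrays numbered 2 (purple triangles) and as the mean with its SE from limma (black). Both symbols lie right of 0 for the 3 Igf1 probe sets and Igfbp4 and left of 0 for the 4 of Igf1r and Igf2r, while Irs1, Igfbp2 and 3 of the 5 Igfbp5 probe sets have them on opposite sides.

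Of the binding proteins, Igfbp4 had the largest difference of all members. IGFBP4 inhibits IGF action in the follicle and is cut by the protease PAPP-A. Its only probe set, 1371462_at, had 399 and 771 with Runx2 siRNA and 240 and 307 with control siRNA. The groups did not overlap, but the arrays with Runx2 siRNA were far apart, and in both groups the array numbered 2 was the higher. The log2 difference was 0.99 ± 0.33, a ratio of 2.14 (adjusted p = 0.385), and 99.6% of tested probe sets had a lower one. By number, it was 0.70 for the arrays numbered 1 and 1.29 for the arrays numbered 2. Leaving out the second Runx2 siRNA array gave 0.53 and leaving out the first gave 1.45. Beside it, the summed signal of the 9 stromal markers was 1810 and 2741 with Runx2 siRNA and 1571 and 2828 with control siRNA. That of the 8 leukocyte markers was 1076 and 1664 against 798 and 1372. Both sums were higher on the arrays numbered 2, as Igfbp4 was, and their part in its difference was not tested.

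Igfbp5, a binding protein known from atretic follicles of the rat, was measured by 5 probe sets whose groups all overlapped. The brightest, 1370960_at, had 8608 and 8262 with Runx2 siRNA and 8070 and 8597 with control siRNA, a log2 difference of 0.02 ± 0.11. Its direction turned to -0.04 after quantile scaling and to -0.0023 after cyclic loess scaling. The other 4 gave -0.18 ± 0.15 (1396152_s_at), -0.36 ± 0.24 (1387348_at), -0.12 ± 0.20 (1397830_at) and -0.42 ± 0.28 (1387347_at).

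These lower values rested on 1 array. Probe set 1387347_at, for example, had 1504 and 833 with Runx2 siRNA against 1486 and 1523 with control siRNA, and 1387348_at had 2404 and 1467 against 2545 and 2294. In these 4 probe sets the second Runx2 siRNA array was the lowest of the 4 arrays. This array also had the high actin 3' to 5' ratio, but its GAPDH ratio, 0.949, was the lowest of the 4 arrays. Without the second Runx2 siRNA array the 5 differences were 0.05, 0.0077, -0.0073, 0.12 and -0.00018, from brightest to dimmest. The part of RNA quality in this pattern was not tested.

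Igfbp6, which prefers IGF2 to IGF1, had signals of 113 and 128 with Runx2 siRNA and 86.7 and 95.2 with control siRNA in its brighter probe set, 1372168_s_at. The groups did not overlap, and the log2 difference was 0.35 ± 0.21 (adjusted p = 0.510). Its dimmer probe set, 1387625_at, was below the limit, at 61.1 and 44.5 against 34.6 and 44.3. Igfbp2, at 45.3 and 117 against 66.1 and 89.5, passed the filter with a mean of only 79.4, and its array values were spread across both groups (-0.05 ± 0.42). Igfbp3, the main carrier of IGFs in blood, was dim in both probe sets, at 33.9 and 47.1 against 40.4 and 37.6 in 1367652_at. In 1386881_at it had 28.0 and 9.48 against 4.59 and 8.20, all well below the limit, and no difference was tested for Igfbp3.

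Among the 18 tested member probe sets the groups did not overlap in 10. Both Runx2 siRNA arrays were above both controls in 6 of 18, where 28.8% of all tested probe sets were, and below in 4 of 18, where 18.5% were, so the members' shares were close to those over all. Between the control arrays the members differed by -0.19 (Insr, brighter probe set) to 0.36 (Igfbp2), second minus first, and between the Runx2 siRNA arrays by -0.84 (Igfbp5, dimmest) to 1.11 (Igfbp2). The median difference between the siRNA groups was -0.08, against 0.05 over all tested probe sets. By role, the ligand's 3 probe sets had a median of 0.77, the 6 of the receptors -0.62 and the 8 tested ones of the binding proteins -0.08. Probe sets of the same gene share their transcript and are not independent.

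**Figure D3:**
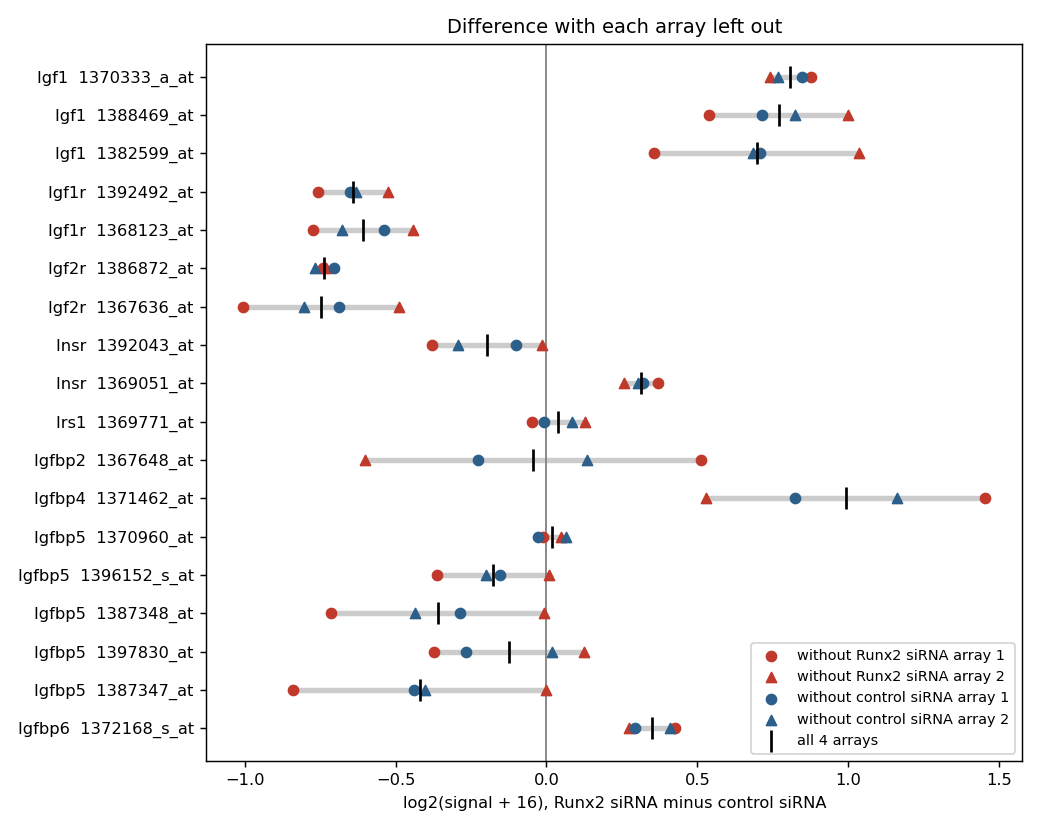
Difference of log2(signal + 16), Runx2 siRNA minus control siRNA, of the 18 tested member probe sets with all 4 arrays (black ticks) and with each array left out in turn, red for a Runx2 siRNA array and blue for a control array. The Igf1, Igf1r, Igf2r and Igfbp4 symbols stay on their side of 0 in all cases, and without the second Runx2 siRNA array (red triangles) 4 of the 5 Igfbp5 values lie within 0.05 of 0.

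The genes most like the brightest Igf1 probe set over the 4 arrays were found among 9946 tested genes by Euclidean distance of centred log2 values. They were Fgd6 (distance 0.063), Ccdc13 (0.086), Brap (0.090), Dnah7 (0.10) and Kcnh1 (0.11). Kcnh1, a voltage-gated potassium channel, had 168 and 174 with Runx2 siRNA against 102 and 89.5 with control siRNA. Nearest to the brighter Igf1r probe set were Dhrs4 (0.072), Itga5 (0.073), Xk (0.081), Agpat2 (0.087) and Enox2 (0.089). Dhrs4, a retinol dehydrogenase, had 860 and 720 against 1157 and 1199. Itga5, the alpha 5 subunit of the fibronectin receptor integrin, had 290 and 255 against 409 and 438. Over 4 arrays this likeness is a description only.

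The other ligand, receptor and binding protein genes on the array were mostly dim. Igf2, the second IGF, had 4 probe sets below the limit, the brightest at 121 and 78.6 with Runx2 siRNA and 39.0 and 75.0 with control siRNA. Ins2, Insrr, Igfbp1, Igfbpl1 and Igfals, by their brightest probe sets, had mean signals of 21.6, 17.2, 4.69, 26.9 and 6.14. Ins1, which encodes insulin 1, had 138 and 214 against 94.3 and 94.0, a log2 difference of 0.77 ± 0.26 (adjusted p = 0.385), and belongs to a near-identical gene pair with Ins2, so that its probes may bind both. Igfbp7, a secreted protein that binds insulin and IGFs weakly, had 188 and 236 against 282 and 479, a difference of -0.76 ± 0.28 (adjusted p = 0.409).

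A wider list of 91 genes of the pathway, including the members, was read by the brightest probe set of each gene. Of these 77 were on the array with a symbol of their own and 61 passed the filter. The groups did not overlap in 30 of the 61, 19 higher and 11 lower with Runx2 siRNA, where over 10017 genes 28.8% were higher and 19.6% lower. By limma 0 had an adjusted p under 0.05, as did 0.0% of all genes. At an unadjusted p under 0.05 there were 6 higher and 6 lower of the 61, where 6.42% of all genes were higher and 5.94% lower. The median difference was 0.03 against 0.05 over all genes.

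Downstream of the receptor, the largest differences lay on both sides. Rictor, the defining subunit of mTOR complex 2, had 1513 and 1455 with Runx2 siRNA and 948 and 956 with control siRNA. Its log2 difference was 0.63 ± 0.10 (adjusted p = 0.278). A dimmer probe set, below the limit and not tested, had the same direction, at 111 and 58.65 against 55.1 and 43.2. Eif4ebp1, a translation repressor that mTOR complex 1 inactivates, had 2473 and 2167 against 1563 and 1562 (0.56 ± 0.11, adjusted p = 0.324). In the brightest probe set of each of these genes the lower Runx2 siRNA array was well above both controls. Nras, a Ras GTPase, had 1257 and 1379 against 1840 and 2292 (-0.64 ± 0.14, adjusted p = 0.346), and its second probe set was also lower on both arrays. Pik3ca, the catalytic subunit of PI3K, had 1258 and 1032 against 1716 and 1498 in its brightest probe set (-0.49 ± 0.14, adjusted p = 0.364). Its other 5 probe sets did not share that direction throughout, and the next brightest was higher, at 1424 and 1426 against 1302 and 1235.

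Of the genes that process binding proteins, Stc1, which encodes the PAPP-A inhibitor stanniocalcin 1, had 4247 and 2841 with Runx2 siRNA and 2694 and 1867 with control siRNA. The first array was the higher in both groups, and the log2 difference was 0.63 ± 0.26 (adjusted p = 0.423), with overlapping groups in its 2 dimmer probe sets. Ctsd, a lysosomal protease that IGF2R can carry, had 3711 and 3332 against 5163 and 4449 (-0.45 ± 0.12, adjusted p = 0.355). Htra1, a secreted serine protease that cuts binding proteins, had 1902 and 1910 against 2346 and 2129 (-0.23 ± 0.10, adjusted p = 0.440).

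**Figure D4:**
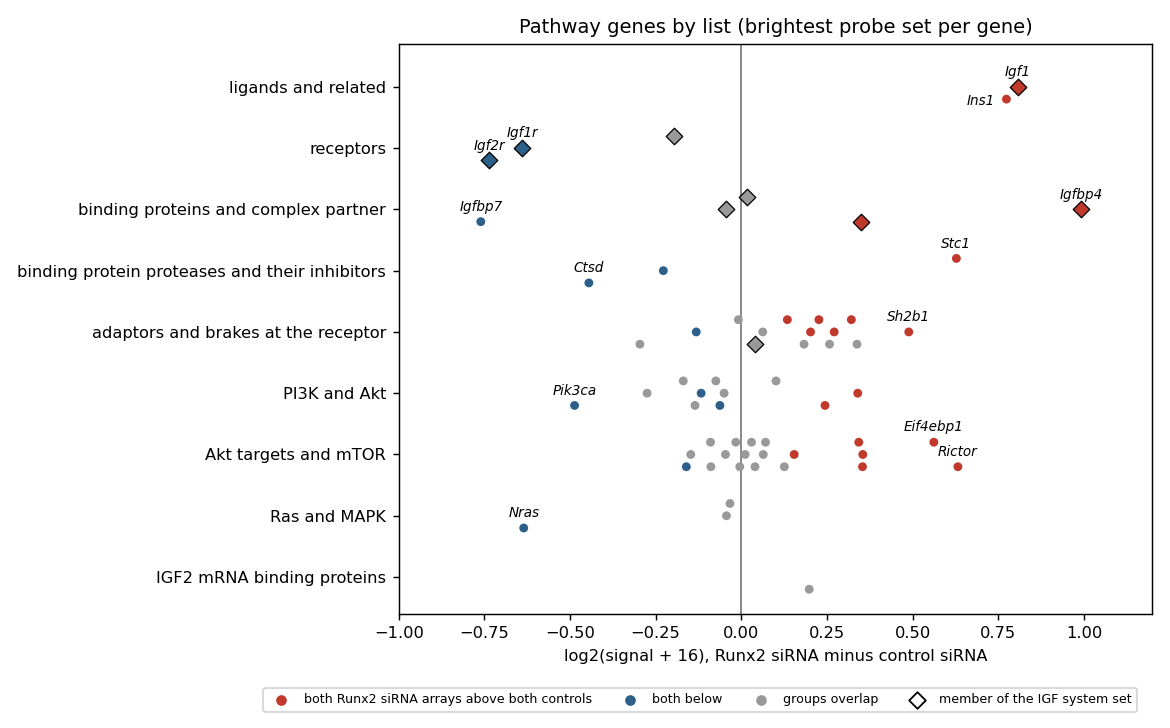
Difference of log2(signal + 16), Runx2 siRNA minus control siRNA, of the 61 tested pathway genes by list, 1 point per gene (its brightest probe set), coloured by whether both Runx2 siRNA arrays were above (red) or below (blue) both controls or overlapped them (grey); diamonds are members of the IGF system set. Igf1 and Igfbp4 lie at the right edge at 0.81 and 0.99, and Igf2r, Igf1r and Igfbp7 at the left at -0.74, -0.64 and -0.76.

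The lists between the receptor and its effectors had medians nearer to 0 than the ligand list (0.79, 2 tested genes) and the receptor list (-0.64, 3 tested genes). The list of binding proteins also had a median near 0, at 0.02. Apart from Ins1, the tested ligand and receptor genes are members, chosen with earlier results of these data known. The contrast of their medians with those of the longer lists is therefore a description only. Adaptors and brakes at the receptor had a median of 0.19, with 11 of 14 tested genes above 0, where 5745 of all 10017 genes were. In this list 6 of 14 were higher and 1 lower without overlap, where 28.8% of all genes were higher and 19.6% lower. An unadjusted p under 0.05 by limma was seen in 0 of the 14, where 6.42% of all genes were higher and 5.94% lower at that level. Genes of PI3K and Akt had a median of -0.07, with 3 of 11 above 0. Akt targets and mTOR genes had a median of 0.04. Without overlap 6 of 19 were higher and 1 lower, where 28.8% of all genes were higher and 19.6% lower. At an unadjusted p under 0.05 by limma 3 of 19 were higher and 0 lower, where 6.42% and 5.94% of all genes were. Akt1 itself, the kinase at the centre of this branch, had 2570 and 2563 against 2651 and 2712 in its brightest probe set (-0.06 ± 0.09). Its dimmer probe sets differed by 0.16 and 0.14, with overlapping groups.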

How the data were processed

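The deposited values are the authors' array intensity, linear MAS5 signal. The submitters' processing notes name MAS5, without a version. The mean of each array after trimming 2% at each end was 498 to 499, so the arrays had been scaled alike, which would hide a change in total RNA. Of 31099 probe sets 57 array controls were left out. Of the rest, 20826 had 1 symbol in the probe table, 436 several and 9780 none, and the gene identifiers of all 21 member probe sets matched a rat gene table (GRCr8).

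Differences were computed here with limma 3.58.1 in R 4.3.3 (lmFit, eBayes with an intensity trend, two-sided, Benjamini-Hochberg) on log2(signal + 16). The added 16 understates differences of dim probe sets. The lowest 40% by mean signal were left out, without a term for replicate number. The labels do not say whether samples with the same number share a culture. The alternatives changed the constant (1 and 64), the scaling (quantile, cyclic loess) or the filter (none, lowest 60% left out), added the replicate number as a term, or left out each array.

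Members and lists were chosen with earlier results of these data known. All member probe sets were named. From the wider lists, the genes named were those past the threshold (0), the 4 largest differences each way without overlap, and all genes at the ligand, receptor and binding protein level. Htra1 and Akt1 were chosen after their values were seen, as were the dimmer probe sets mentioned. Promoter windows are from RefSeq (GRCr8) and matched all 10 members by symbol.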

Additional observations from a re-analysis of the deposited data

How the results depend on the processing

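Under 10 of the 11 alternatives 0 probe sets over all, 0 member probe sets and 0 pathway genes had an adjusted p under 0.05 by limma. At an unadjusted p under 0.05 the count over all ranged, under these 10, from 871 (first control array left out) to 3596 (first Runx2 siRNA array left out). The exception was the replicate block. With the replicate number as a term, 1512 of the 18625 tested probe sets passed, 610 of them higher and 902 lower. Then 8 of the 18 member probe sets passed, 4 higher and 4 lower (all of Igf1, Igf1r, Igf2r and Igfbp4). Their adjusted p by limma ran from 0.0022 for the brightest Igf1 to 0.035 for the dimmest Igf1. The 11 pathway genes that passed include these 4 genes, and the share over all genes was not computed. Members and lists were chosen with earlier results of these data known, so these counts cannot show an excess over all probe sets. Whether equal numbers mean a shared culture is not in the labels. Arrays of equal number deviated from their group means with a correlation of 0.548 over the tested probe sets. Of the 18 tested member probe sets 13 kept their direction under every alternative in which they were tested, and 13 of 194 values turned. These were all of Irs1, Igfbp2 or Igfbp5: Irs1 was at -0.13 after quantile and -0.15 after cyclic loess scaling, and the brightest Igfbp5 probe set at -0.039 and -0.0023. With an array left out, Irs1 ranged from -0.049 to 0.13, Igfbp2 from -0.60 to 0.51, and the Igfbp5 probe sets 1370960_at, 1396152_s_at and 1397830_at from -0.028 to 0.063, -0.36 to 0.0077 and -0.37 to 0.12. Under the other constants, scalings and filters Igf1 lay between 0.64 and 0.84, Igf1r between -0.64 and -0.58, Igf2r between -0.75 and -0.70 and Igfbp4 between 0.89 and 1.03. The median member difference ranged from -0.21 to 0.04 with an array left out.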
